A study of Mus musculus with 12 samples.

Results

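The genes described here encode the machinery of apoptosis and of other regulated cell death, together with p53 targets and stress genes, measured in mouse renal cortex. They were taken from a list of 40 symbols, of which the array annotation named 37, and all 37 were among the 12385 genes tested. Bax, Trp53 (the gene of p53) and Ripk1 were not analysed here. Total RNA came from the cortex of ICGN mice, labelled as having nephrotic syndrome, and of ICR mice, labelled normal, at 4 and at 8 weeks of age. There were 3 Affymetrix mouse genome arrays for every strain at either age, 12 in all. ICGN is an inbred strain derived from ICR stock whose hereditary kidney disease is linked to a mutation of Tns2, and other genetic differences between the strains cannot be told apart from that mutation in this design. Tns2 itself was lower in ICGN at 4 weeks (log2 fold change -1.97 ± 0.25, limma adjusted p = 8.8e-04) and at 8 weeks (-1.96 ± 0.25, adjusted p = 7.7e-05). Whether a replicate was 1 mouse or a pool is not stated in the labels. The p-values therefore reflect only the spread among these samples, which may be technical, and 3 arrays a group limit the precision.

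In the mitochondrial pathway of apoptosis, BH3-only proteins sense stress and free the effectors BAX and BAK from survival proteins such as BCL2 and MCL1. The effectors then open the outer mitochondrial membrane, and released cytochrome c assembles APAF1 and caspase 9 into the apoptosome. Death receptors such as FAS reach the caspases through FADD and caspase 8, and where caspase 8 is blocked, RIPK1 and RIPK3 can drive MLKL to breach the plasma membrane, which is called necroptosis. The transcription factor p53 is held low by MDM2 and, when active, induces genes of cell cycle arrest and of apoptosis, while ferroptosis is a death by lipid peroxidation that the enzyme GPX4 restrains. In the kidney these programmes are best known from injured proximal tubule cells.

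Levels below are log2(signal + 9) after each array was centred on the median of its tested probe sets, and a difference on that scale is a log2 fold change (given ± the standard error of the fit) that understates the change of dim genes. A gene was called at a limma adjusted p of 0.05 or less over all 12385 genes. Within a group, the correlation of arrays across genes (which are not independent) was 0.977 to 0.988. In bulk cortex, fewer cells of a type and less RNA per cell cannot be told apart. The deposited signals of the 2 ages had been scaled to separate targets, so a change with age and the scaling cannot be told apart either, whereas strains were compared within an age.

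At 4 weeks 3 of the 37 genes were higher in ICGN and 0 lower. They were Cdkn1a, which encodes the cyclin-dependent kinase inhibitor p21, Ccng1, which encodes cyclin G1, and Gadd45b, a stress sensor gene. At 8 weeks 12 were higher and 3 lower. The 12 were Mlkl, Casp12, Cdkn1a, Gadd45b, Ripk3, Pmaip1, Gadd45a, Bmf, Bcl2l11, Acsl4, Mcl1 and Bak1, and the 3 were Bid, Bcl2l2 and Ei24. Over all genes tested at 4 weeks, the calls were 4.03%, of which 2.07% stood higher and 1.96% lower, against 8.11% of the members. For 8 weeks the background was 33.4%, made of 12.1% higher and 21.3% lower, against 32.4% and 8.11% of the members. The median member stood at 0.03 at 4 weeks and 0.13 at 8 weeks, against -0.01 and -0.09 for all genes. The 3 arrays of the strains did not overlap for 10 members that lay higher in ICGN and 2 that lay lower at 4 weeks (11.7% and 12.5% of all genes). At 8 weeks this held for 15 and 5 members (16.7% and 28.6% of all genes).

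**Figure D1:**
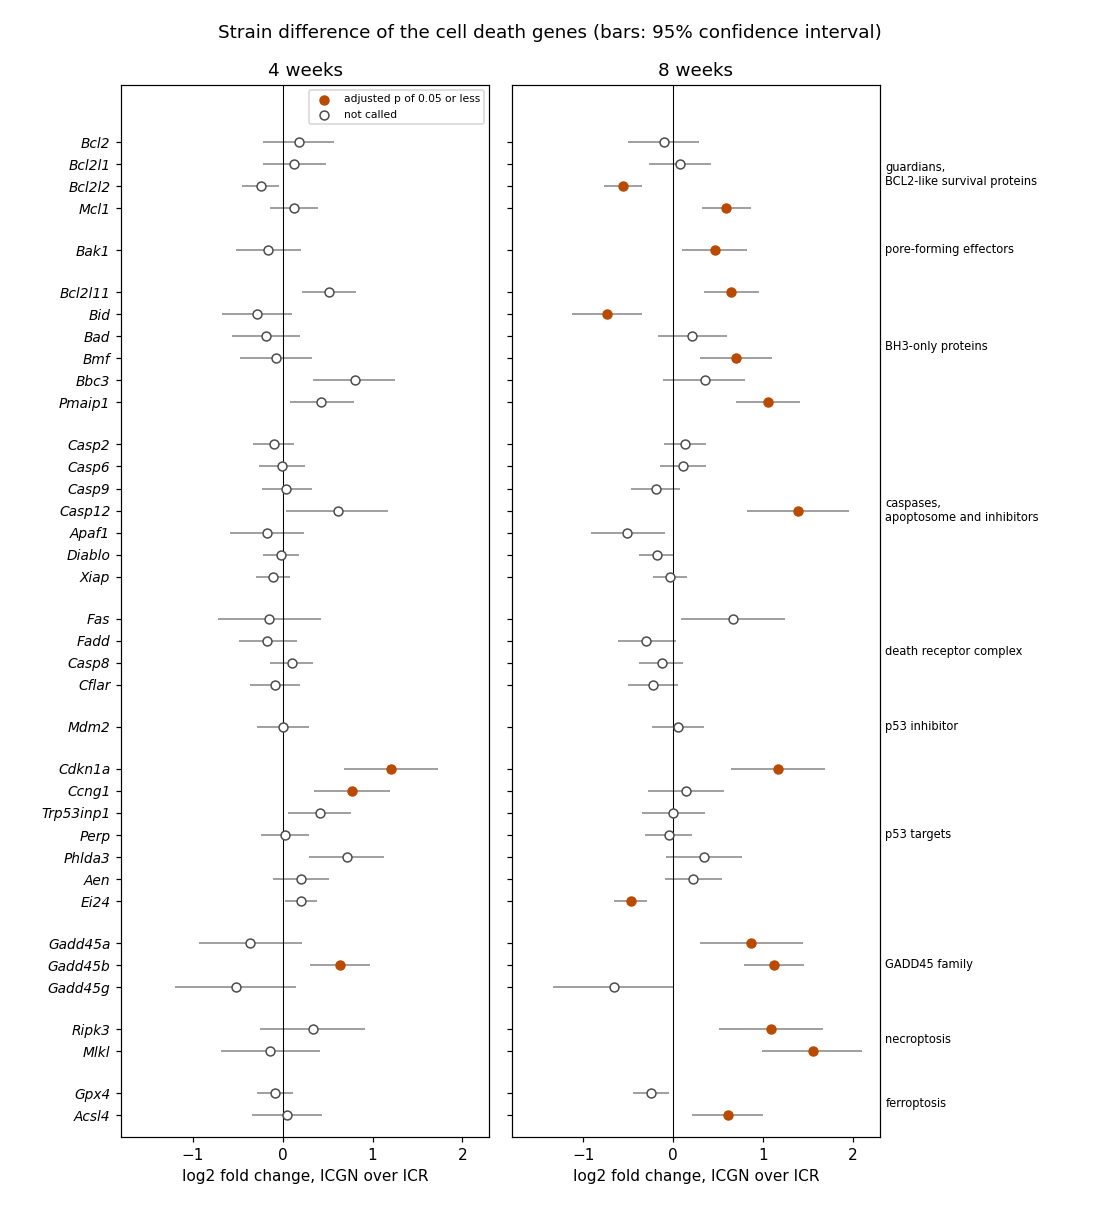
Log2 fold change of ICGN over ICR for the 37 cell death genes at 4 weeks (left) and 8 weeks (right), ordered by role, with bars for the 95% confidence interval and filled points for an adjusted p of 0.05 or less. The 3 filled points at 4 weeks all lie right of 0, and of the 15 at 8 weeks 12 lie right and 3 left.

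Of the 7 p53 targets 2 were called at 4 weeks (28.6%), Cdkn1a and Ccng1, and of the 3 GADD45 genes 1 (33.3%), Gadd45b. Over all genes 4.03% were called at that age. One ICGN array at 4 weeks, replicate 3, was the lowest of its group for 7 of the 7 p53 targets and for 21 of the 37 members (56.8%), against 33.0% of all genes. For members called at this age with or without that array, both values are given. Cdkn1a read 9.33, 9.07 and 8.14 in ICGN and 7.71, 7.80 and 7.40 in ICR at 4 weeks. All 3 ICGN arrays lay above the 3 ICR arrays, replicate 3 the closest to them. The fold change was 1.21 ± 0.24, or 2.31-fold (adjusted p = 0.0135), and 1.56 ± 0.18 without replicate 3 (adjusted p = 8.3e-04). The call was lost without ICGN replicate 1 (0.96, adjusted p = 0.067), ICGN replicate 2 (1.10, adjusted p = 0.0703) or ICR replicate 3 (1.09, adjusted p = 0.0566).

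At 8 weeks the Cdkn1a level was lower in both strains, and ICGN again lay above ICR. It read 7.74, 7.42 and 7.99 in ICGN and 6.47, 6.50 and 6.70 in ICR. The groups did not overlap, and the difference was 1.16 ± 0.24 (adjusted p = 0.00263), called in each of the 23 alternative settings. The lowest ICR array at 4 weeks lay above the highest ICR array at 8 weeks. A second, dimmer probe set of Cdkn1a gave 1.5 ± 0.52 at 4 weeks, which did not pass among all probe sets (adjusted p = 0.156), and 1.76 ± 0.52 at 8 weeks (adjusted p = 0.0233).

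Ccng1 read 12.20, 12.26 and 11.57 in ICGN and 11.48, 11.09 and 11.15 in ICR at 4 weeks. The groups did not overlap, with replicate 3 of ICGN the closest to the ICR arrays. The difference was 0.77 ± 0.20 (adjusted p = 0.0423), and all 3 Ccng1 probe sets were called higher at this age, the others at 1.03 and 0.85. Without ICGN replicate 3 the first of these values was 0.99 ± 0.18 (adjusted p = 0.00959). At 8 weeks Ccng1 read 11.62, 11.93 and 12.08 in ICGN and 11.83, 11.38 and 11.99 in ICR, and the groups overlapped (0.14 ± 0.20). Leaving out ICGN replicate 1 or 2 or ICR replicate 2 or 3 at 4 weeks, or ICGN replicate 2 or 3 at 8 weeks, ended the 4-week call, with adjusted p up to 0.174. The call was also lost with a common median of all probe sets (adjusted p = 0.0775), with no filter (adjusted p = 0.0645) and without the mean-variance trend (adjusted p = 0.0835).

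The other 5 p53 targets did not pass at 4 weeks, although all of them had a positive value. Phlda3, which encodes a repressor of AKT signalling, stood at 0.71 ± 0.20 (adjusted p = 0.0604) with levels from 7.71 to 8.56 in ICGN and from 7.39 to 7.66 in ICR. Without ICGN replicate 3 it passed (0.98 ± 0.15, adjusted p = 0.00336). Trp53inp1, which encodes a p53-induced nuclear protein, was at 0.41, Aen, the gene of an apoptosis-enhancing nuclease, at 0.20, Ei24, the gene of an endoplasmic reticulum protein, at 0.20, and Perp, the gene of a p53-induced membrane protein, at 0.03. Mdm2, itself a p53 target and the gene of its inhibitor, stood at 0.00 ± 0.14 at 4 weeks and 0.05 ± 0.14 at 8 weeks. Its 95% confidence interval at 4 weeks reached from -0.29 to 0.29.

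Ei24 went the other way at 8 weeks. The 4-week levels were 11.10, 11.24 and 11.04 in ICGN and 11.01, 10.80 and 10.97 in ICR. The 8-week levels were 10.79, 10.88 and 10.85 in ICGN and 11.26, 11.34 and 11.33 in ICR. The ICGN arrays lay above the ICR arrays at 4 weeks and below them at 8 weeks, with no overlap at either age. The 8-week difference was -0.47 ± 0.09 (adjusted p = 9.3e-04) and was called in all 23 alternative settings. Of the 7 genes grouped here as p53 targets, only Cdkn1a and Ei24 were called at 8 weeks. The others had values from -0.05 for Perp to 0.34 for Phlda3. Gadd45a, also a p53 target but grouped with the GADD45 genes below, was called higher at that age (0.87 ± 0.27). Cdkn1a and Ei24 made 28.6% of the 7 targets, against 33.4% of all genes called at that age.

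**Figure D2:**
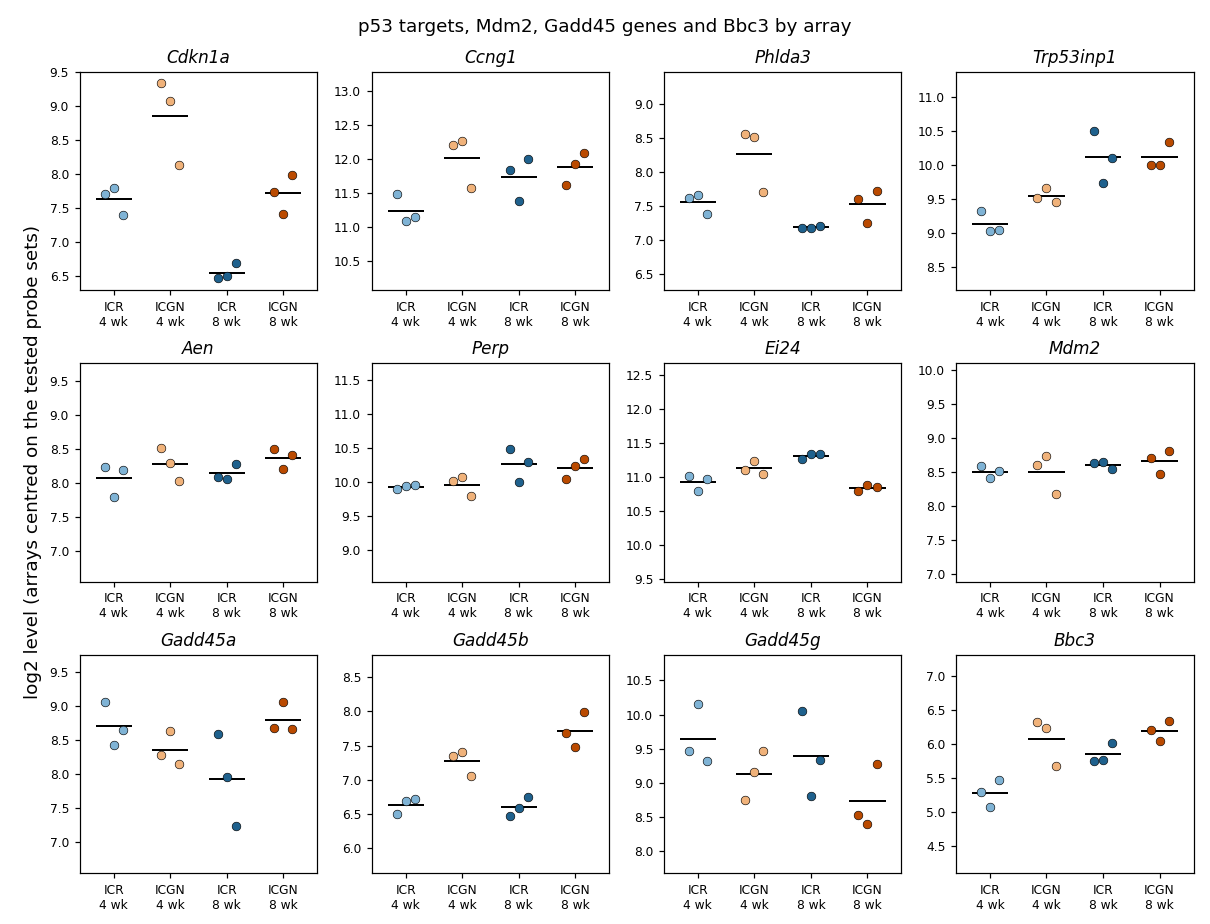
Log2 level in each array of the p53 targets, Mdm2, the Gadd45 genes and Bbc3, by strain and age, with 3 points a group and a line at the group mean; every panel spans the same range of log2 units. Cdkn1a separates the strains at both ages, Ccng1 at 4 weeks and not at 8 weeks, and Ei24 lies lower in ICGN at 8 weeks.

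The sequences upstream of the p53 targets are shown because p53 binds DNA through decamer motifs and these genes were called in different directions or not at all. RefSeq windows (GRCm38.p6, 250 bases before to 50 after a start site) were searched for 37 of the 40 listed genes, 53 windows in all. These were not the same 37 genes as those tested. Bax, Trp53 and Ripk1 were searched, while Pmaip1, Trp53inp1 and Perp had no window searched. Windows on 1 chromosome were left out, for members and other genes alike. The p53 decamer motif was searched by its consensus on both strands, with matches to the palindromic pattern counted once. It was found in 10 of the 53 windows (18.9%) and in 8.36% of the 32851 windows searched over all genes. The 10 windows belong to 9 genes, Aen, Bax, Bmf, Ccng1, Cdkn1a, Ei24, Gadd45a, Mdm2 and Trp53. Sequences run 5′ to 3′ on the gene's strand and stop before the start site, with the matches in capitals. Cdkn1a holds 2 matches, at -73 and -51 from the more upstream of its start sites, in 250 bases on the plus strand of chr17:29090729-29090978.
Cdkn1a: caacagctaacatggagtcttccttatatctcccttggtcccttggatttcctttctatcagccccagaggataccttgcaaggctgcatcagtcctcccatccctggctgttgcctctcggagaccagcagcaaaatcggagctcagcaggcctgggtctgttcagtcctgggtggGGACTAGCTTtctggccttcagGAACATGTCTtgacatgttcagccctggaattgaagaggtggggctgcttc
Ccng1, on the minus strand of chr11:40755287-40755536, holds 1 match at -185.
Ccng1: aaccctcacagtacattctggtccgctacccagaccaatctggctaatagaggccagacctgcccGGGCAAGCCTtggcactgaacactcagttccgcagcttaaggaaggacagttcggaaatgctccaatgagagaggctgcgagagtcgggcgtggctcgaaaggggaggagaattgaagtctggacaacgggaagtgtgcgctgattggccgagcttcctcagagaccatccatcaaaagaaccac
For the genes that did not follow them, a shorter stretch around the match is given. The match of Mdm2, not called at either age, lies at -186 on the minus strand of chr10:117710890-117710989.
Mdm2: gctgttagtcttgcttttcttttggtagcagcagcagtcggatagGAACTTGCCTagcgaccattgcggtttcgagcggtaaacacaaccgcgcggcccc
That of Ei24, which was lower in ICGN at 8 weeks, lies at -10 on the minus strand of chr9:36797335-36797389.
Ei24: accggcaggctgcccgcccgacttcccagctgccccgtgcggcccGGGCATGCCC
That of Gadd45a, called at 8 weeks but not at 4 weeks, lies at -40 on the minus strand of chr6:67037408-67037492.
Gadd45a: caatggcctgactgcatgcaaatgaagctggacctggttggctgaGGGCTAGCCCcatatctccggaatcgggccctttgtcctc
A match describes the letters in the window and is not evidence of binding, and genes with a match were higher, lower and not called.

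The GADD45 proteins are stress sensors that bind cell cycle and MAP kinase partners. Gadd45b read 7.35, 7.40 and 7.05 in ICGN and 6.49, 6.69 and 6.71 in ICR at 4 weeks. Its 8-week levels were 7.69, 7.48 and 7.99 against 6.47, 6.58 and 6.75. The groups were apart at both ages, by 0.64 ± 0.15 (adjusted p = 0.0346) and 1.12 ± 0.15 (adjusted p = 1.5e-04), and the 8-week call held in each of the 22 alternatives that tested the gene. The 4-week call was lost without any 1 of ICGN replicates 1 and 2 and ICR replicates 1, 2 and 3 of that age, with adjusted p up to 0.14, with a common median (adjusted p = 0.0723) and with no filter (adjusted p = 0.0654). Without ICGN replicate 3 the 4-week value was 0.75 ± 0.16 (adjusted p = 0.0283). A second Gadd45b probe set was not called at 4 weeks (0.64 ± 0.19, adjusted p = 0.0844) but was at 8 weeks (0.72 ± 0.19, adjusted p = 0.0108). A further, dimmer one was called at neither age (0.40 and 0.18). Gadd45a, a classical p53 target, was not called at 4 weeks (-0.36 ± 0.27). At that age it read 8.28, 8.63 and 8.14 in ICGN and 9.05, 8.42 and 8.65 in ICR. The 8-week arrays read 8.67, 9.05 and 8.66 in ICGN and 8.58, 7.96 and 7.24 in ICR, so the groups no longer overlapped. That difference was 0.87 ± 0.27 (adjusted p = 0.0227), but 0.53 (adjusted p = 0.0985) without ICR replicate 3 and 0.74 (adjusted p = 0.0829) without ICGN replicate 2. Gadd45g was not called at either age (-0.52 and -0.66), and its arrays overlapped, but without ICGN replicate 3 of 8 weeks (-0.94, adjusted p = 0.0493) or ICR replicate 2 (-0.96, adjusted p = 0.0337) it passed as lower at that age.

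Among the BCL2-like survival genes, Mcl1 and Bcl2l2 were called in opposite directions at 8 weeks. Mcl1, the gene of a short-lived survival protein, was higher in ICGN (0.59 ± 0.12, adjusted p = 0.00258). Of its 6 probe sets 3 were called higher at that age, and the other 3 had values from 0.22 to 0.34. Bcl2l2, which encodes BCL-W, was lower (-0.56 ± 0.10, adjusted p = 6.9e-04). A second, dimmer Bcl2l2 probe set was not called at 8 weeks (-0.25 ± 0.29, adjusted p = 0.565). Bcl2 read 7.69, 7.87 and 7.61 in ICGN and 7.46, 7.42 and 7.77 in ICR at 4 weeks, and 8.01, 7.27 and 7.63 against 7.99, 7.79 and 7.44 at 8 weeks. Its groups overlapped at both ages, with a 95% confidence interval at 8 weeks from -0.50 to 0.29. Bcl2l1, the gene of BCL-XL, was also not called (0.13 and 0.07). None of these 4 survival genes was called at 4 weeks.

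The BH3-only genes gave 3 higher and 1 lower of 6 at 8 weeks and no call at 4 weeks. Pmaip1, which encodes NOXA, a partner of MCL1, read 9.43, 9.18 and 9.65 in ICGN and 8.6, 8.0 and 8.5 in ICR at 8 weeks. The 4-week arrays read 8.61, 8.65 and 8.59 against 8.33, 7.90 and 8.32. The ICGN arrays lay above the ICR arrays at both ages, but only the 8-week difference passed (1.05 ± 0.17, adjusted p = 3.8e-04; 0.43 ± 0.17 at 4 weeks, adjusted p = 0.174), and the difference between those values did not (adjusted p = 0.111). Bcl2l11, the gene of BIM, read 9.30, 9.21 and 9.38 in ICGN and 8.85, 8.58 and 8.53 in ICR at 8 weeks (0.64 ± 0.14, adjusted p = 0.00374). The 4-week arrays read 9.19, 9.32 and 8.91 against 8.91, 8.59 and 8.38, where the lowest ICGN array lay above the highest ICR array by less than the digits given. That value, 0.51 ± 0.14, missed the threshold (adjusted p = 0.062) and passed without ICGN replicate 3 (0.63, adjusted p = 0.0393) or without ICR replicate 1 (0.66, adjusted p = 0.0223). It also passed with quantile normalization (adjusted p = 0.0468) and with the authors' scaling (adjusted p = 0.0483). Of the other Bcl2l11 probe sets, 1 was called at 4 weeks (0.59 ± 0.14, adjusted p = 0.0377). The rest were not, with values from 0.32 to 0.64.

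Bmf, whose product links cytoskeletal stress to BCL2 proteins, read 7.49, 7.92 and 7.55 in ICGN and 7.31, 6.62 and 6.93 in ICR at 8 weeks. The groups did not overlap (0.70 ± 0.19, adjusted p = 0.0113), and the call was lost without ICGN replicate 2 (0.57, adjusted p = 0.053) and, just over the threshold, without ICR replicate 2 (0.53, adjusted p = 0.05 after rounding). At 4 weeks the arrays overlapped, with 6.86, 7.25 and 6.75 in ICGN and 7.0, 7.16 and 6.91 in ICR. Bid, whose product carries the death receptor signal to mitochondria, was the BH3-only gene called lower in ICGN. It read 9.45, 10.20 and 9.72 in ICGN and 10.47, 10.51 and 10.59 in ICR at 8 weeks, with all ICGN arrays below all ICR arrays (-0.74 ± 0.18, adjusted p = 0.0069). Its 4-week levels were 9.63, 9.60 and 10.17 against 9.93, 10.05 and 10.29, and the groups overlapped. Bbc3, the gene of the p53 target PUMA, missed the threshold at 4 weeks (0.80 ± 0.21, adjusted p = 0.0529) and at 8 weeks (0.35 ± 0.21). All 3 ICR arrays at 4 weeks held it at or below their array median, and without ICGN replicate 3 it passed (1.00 ± 0.21, adjusted p = 0.0219). It also passed with the authors' scaling (adjusted p = 0.0429), the mean of a gene's probe sets (0.0414) and no mean-variance trend (0.031). Bad was at -0.19 and 0.21 at the 2 ages.

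Bak1, the one pore-forming effector measured, ranged from 6.68 to 6.84 in ICGN and from 6.07 to 6.39 in ICR at 8 weeks. The groups did not overlap, and the difference of 0.46 ± 0.17 passed narrowly (adjusted p = 0.0479). The call was lost when any 1 of 10 arrays was left out, all but ICR replicates 1 and 2 at 4 weeks, with values from 0.36 to 0.51 and adjusted p up to 0.156. It was also lost with quantile normalization (0.37, adjusted p = 0.117) and with a common median (0.36, adjusted p = 0.124). With no filter (adjusted p = 0.0847), only the 2 groups compared (0.0627) or 4 times the offset (0.053) it did not pass either. Among all probe sets, a second, dimmer one of Bak1 was called higher at 8 weeks (1.01 ± 0.31, adjusted p = 0.0263). The brighter one was not called there (adjusted p = 0.0556).

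Of the 7 caspase, apoptosome and inhibitor genes, Casp12 alone was called, at 8 weeks (14.3%, against 33.4% of all genes). Casp12 encodes a caspase tied to the endoplasmic reticulum and to inflammation. It read 7.01, 6.66 and 7.36 in ICGN and 6.16, 5.24 and 5.46 in ICR at 8 weeks (1.39 ± 0.26, or 2.62-fold, adjusted p = 0.00137). The 4-week levels were 6.11, 6.45 and 6.31 against 5.35, 5.63 and 6.07, apart by 0.61 ± 0.26 with no overlap but not past the test (adjusted p = 0.236). The 8-week call held in each of the 22 alternatives that tested it. A second Casp12 probe set of similar brightness was not called at 8 weeks (1.06 ± 0.46, adjusted p = 0.0983) and gave 0.38 ± 0.46 at 4 weeks. Casp12 was dim in ICR. The arrays at 5.24 and 5.46 at 8 weeks, and at 5.35 and 5.63 at 4 weeks, held it at or below their array median. Casp9 read 7.28, 7.38 and 7.57 in ICGN and 7.31, 7.33 and 7.47 in ICR at 4 weeks, and 7.41, 7.36 and 7.25 against 7.68, 7.63 and 7.29 at 8 weeks. Its groups overlapped at both ages. Its partner Apaf1 missed the threshold at 8 weeks (-0.51 ± 0.19, adjusted p = 0.0585) and passed without ICGN replicate 2 (-0.67, adjusted p = 0.0244) or without ICR replicate 1 of 4 weeks (-0.51, adjusted p = 0.0395). It also passed with a common median (-0.61, adjusted p = 0.0378) and with the mean of its probe sets (adjusted p = 0.0286). The values of Casp2, Casp6, Diablo and Xiap ranged from -0.18 to 0.13 in the older mice and from -0.11 to -0.01 in the younger. Xiap, the gene of a caspase inhibitor, had a second probe set that was called higher at 8 weeks (0.50 ± 0.13, adjusted p = 0.0142) where the brighter one stood at -0.04.

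The death receptor genes were not called in either strain comparison. Fas read 7.07, 7.01 and 7.70 in ICGN and 6.71, 6.40 and 6.69 in ICR at 8 weeks. The groups did not overlap, but 0.66 ± 0.27 did not pass (adjusted p = 0.0703), and it passed in 5 of the 22 alternatives. These included 4 times the offset (0.55, adjusted p = 0.0462), the authors' scaling (0.79, adjusted p = 0.0355), only the 2 groups compared (adjusted p = 0.0342) and leaving out ICR replicate 3 of 4 weeks (adjusted p = 0.0243). At 4 weeks Fas read 5.65, 6.04 and 5.97 against 5.60, 5.80 and 6.72, the last array standing above all others. The adaptor Fadd (-0.30), Casp8 (-0.13) and Cflar (-0.23), which encodes the caspase 8 inhibitor FLIP, were uncalled at 8 weeks. Fadd passed as lower with a common median (-0.40, adjusted p = 0.0446). The direction of Cflar turned with the probe set, since its other 4 probe sets had uncalled values from 0.01 to 0.56.

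Both necroptosis genes tested were higher in ICGN at 8 weeks, where 12.1% of all genes were, and neither was called at 4 weeks. Mlkl, the gene of the membrane-breaching effector, read 6.39, 6.40 and 6.62 in ICGN and 5.34, 5.12 and 4.31 in ICR at 8 weeks. Its 4-week levels were 5.72, 6.09 and 5.75 against 6.18, 6.06 and 5.73. The strains overlapped at 4 weeks and were apart at 8 weeks, by 1.55 ± 0.26 or 2.92-fold (adjusted p = 5.6e-04). No ICR array at 8 weeks held Mlkl above the median of that array, which makes the size depend on the offset, and over the 22 alternatives that tested it the value ran from 1.02 to 1.91 with the call kept. Ripk3, the kinase that activates MLKL, read 6.0, 6.43 and 6.1 in ICGN and 4.80, 5.65 and 4.82 in ICR at 8 weeks (1.09 ± 0.27, adjusted p = 0.00747). The ICR arrays at 4.80 and 4.82 held it at or below their array median, so its size depends on the offset too. Over the 22 alternatives that tested Ripk3 the value ran from 0.72 to 1.37 with the call kept. The younger arrays read 5.83, 6.38 and 5.68 against 5.86, 5.56 and 5.46, and the groups overlapped.

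Of the ferroptosis genes, Acsl4, whose product loads membranes with oxidisable lipids, was higher at 8 weeks (0.61 ± 0.18, adjusted p = 0.0207). It was lost without ICGN replicate 3 (0.51, adjusted p = 0.0831), without ICR replicate 2 (0.38, adjusted p = 0.0838) and with a common median (0.51, adjusted p = 0.0687), while 2 further probe sets of Acsl4 were called at 0.66 and 0.84. Gpx4 read 12.58, 12.59 and 12.64 in ICGN and 12.80, 12.80 and 12.96 in ICR at 8 weeks. At 4 weeks the levels were 12.59, 12.81 and 12.82 against 12.97, 12.73 and 12.79. The strains overlapped at 4 weeks and not at 8 weeks, where -0.25 ± 0.09 missed the threshold (adjusted p = 0.0523). It passed in 6 of the 23 alternatives, with adjusted p from 0.0152 with the mean of its probe sets to 0.0475 with 4 times the offset, and a second Gpx4 probe set was called lower (-0.43 ± 0.10, adjusted p = 0.00671). Over the 23 alternatives its value ran from -0.35 to 0.02.

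**Figure D3:**
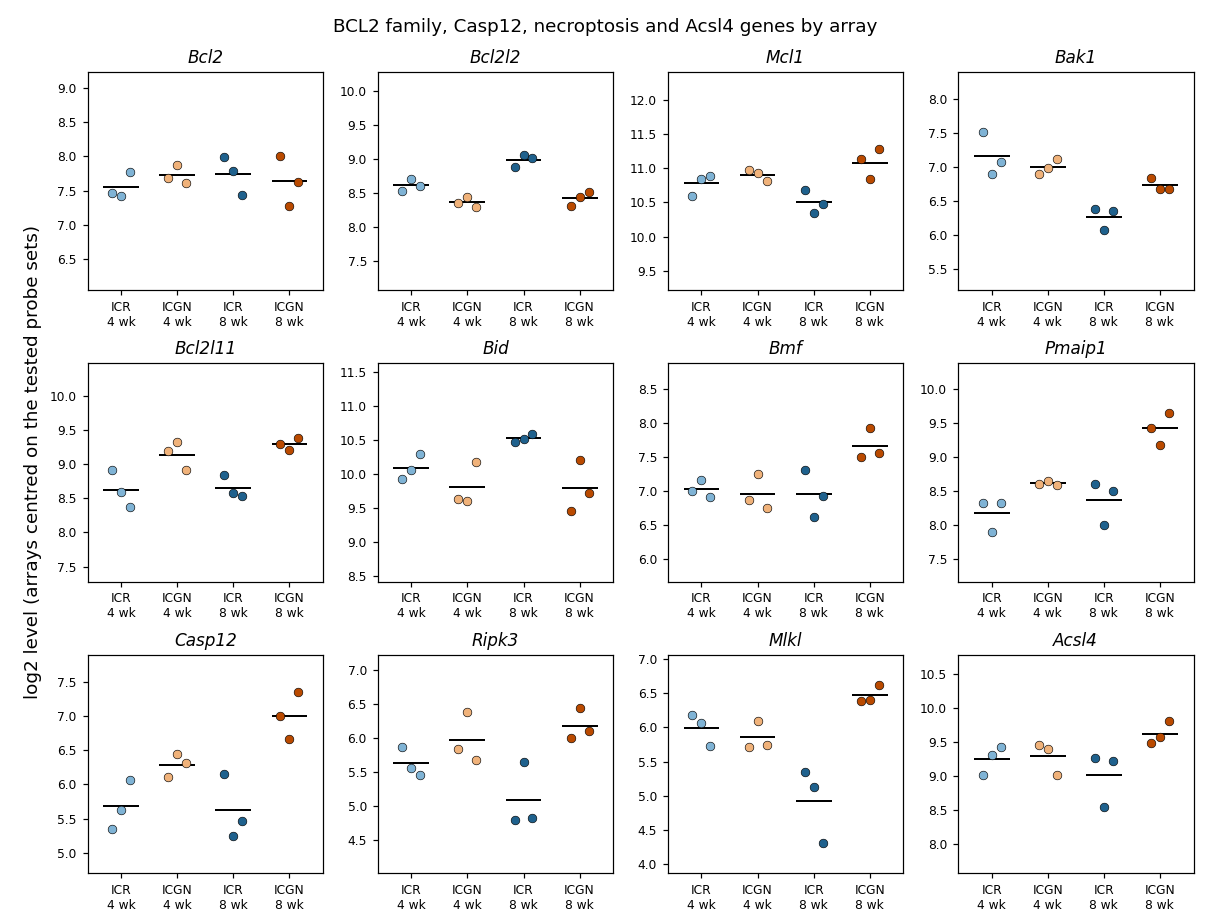
Log2 level in each array of BCL2 family genes, Casp12, the necroptosis genes and Acsl4, by strain and age, with 3 points a group and a line at the group mean; every panel spans the same range of log2 units. Mlkl lies near 6 in both strains at 4 weeks and between 4.31 and 5.34 in ICR at 8 weeks, and Bid and Bcl2l2 lie lower in ICGN at 8 weeks.

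The difference between the strain differences at 8 and at 4 weeks, the interaction, was called for 2 of the 37 genes, Mlkl (1.69 ± 0.36, adjusted p = 0.0135) and Ei24 (-0.67 ± 0.12, adjusted p = 0.00526). Over all genes 9.96% were called, 3.98% higher and 5.98% lower, and 2.70% of the members each way. Both calls held in every alternative that tested the gene. Gadd45a missed the threshold (1.23 ± 0.38, adjusted p = 0.0541), as did Bmf (0.77 ± 0.26, adjusted p = 0.0804) and Ccng1 (-0.63 ± 0.28, adjusted p = 0.163). A second Ccng1 probe set was called in the interaction (-1.01 ± 0.23, adjusted p = 0.0232), and the third was not (-0.69 ± 0.25, adjusted p = 0.117). The Cdkn1a value was -0.05, with a 95% confidence interval from -0.79 to 0.70. Without ICR replicate 1 of 8 weeks, 4 members were called.

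The change from 4 to 8 weeks was also tested within each strain. In ICR, 5 members were higher at 8 than at 4 weeks and 4 lower (18.4% and 14.4% of all genes, 32.8% together). In ICGN, 6 were higher and 3 lower (9.60% and 13.5% of all genes, 23.1% together). The 3 arrays of the ages did not overlap for 8 members higher and 6 lower at 8 weeks in ICR (24.0% and 19.7% of all genes). In ICGN this held for 11 and 3 members (17.5% and 24.7% of all genes). Cdkn1a fell in both strains, by 1.08 in ICR and 1.13 in ICGN. Trp53inp1 rose in both (0.98 and 0.57), as did Cflar (0.67 and 0.53). Ei24 rose in ICR (0.38) and fell in ICGN (-0.29). Mlkl fell in ICR (-1.07 ± 0.26, adjusted p = 0.00615), while its value in ICGN, 0.62 ± 0.26, was not called (adjusted p = 0.099). In ICR Bcl2l2 (0.37) and Casp8 (0.36) also rose, and Bak1 (-0.88) and Gadd45a (-0.78) fell. In ICGN Fas rose most (1.37 ± 0.27, adjusted p = 0.0026), with Pmaip1 (0.80), Bmf (0.70) and Gadd45b (0.45), and Phlda3 fell (-0.73). In ICR 14 members were called without ICGN replicate 3 of 4 weeks, and in ICGN 4 without replicate 1 of 4 weeks and 5 without replicate 3 of 8 weeks.

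**Figure D4:**
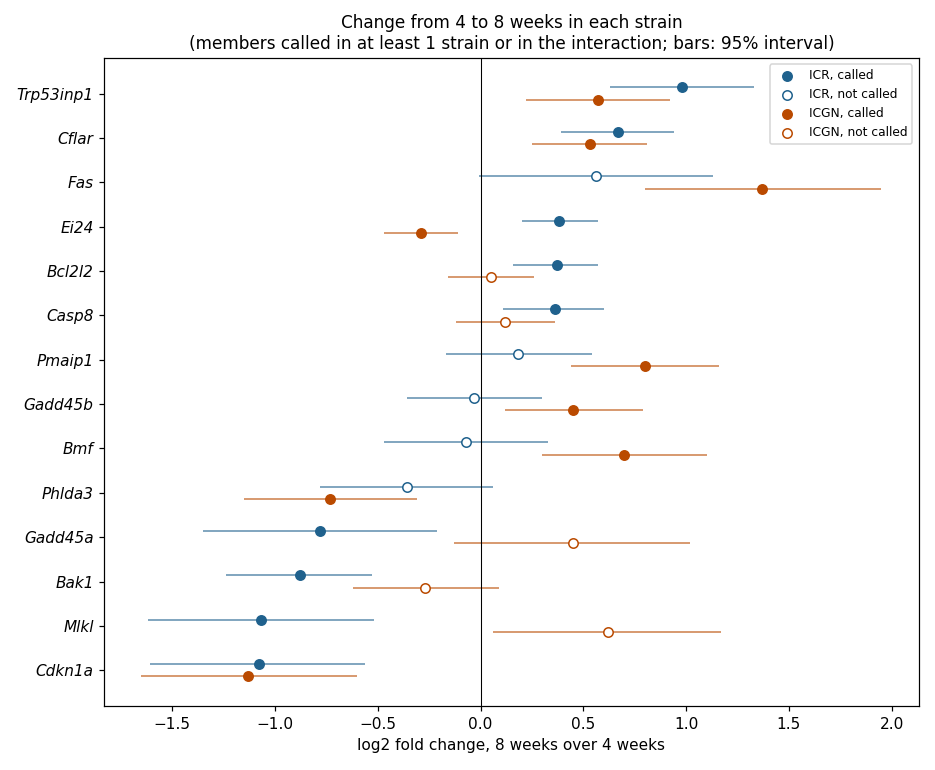
Log2 fold change from 4 to 8 weeks in ICR (blue) and ICGN (dark orange) for the 14 members called in at least 1 strain, with bars for the 95% confidence interval and filled points for called genes. Cdkn1a lies left of 0 in both strains, while Mlkl and Ei24 lie on opposite sides.

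Further genes of the same pathways were read from 5 lists written with earlier results of these data known. Of 37 further p53 regulators and targets tested, 4 were called at 4 weeks (10.8%, against 4.03% of all genes), 3 higher and 1 lower. Eda2r, a p53-induced receptor gene, stood at 1.38 ± 0.26 (adjusted p = 0.00817), Plk2, a p53-induced kinase gene, at 0.77 and Zmat3, the gene of a p53-induced zinc finger protein, at 0.73. Trp53bp2, which encodes a p53-binding protein, was lower (-0.79). At 8 weeks 8 were higher and 5 lower. Psrc1 (1.78), Eda2r (1.28), the checkpoint kinase gene Chek1 (1.22) and Thbs1 (1.02) led the first, and Igfbp3 (-1.35), Trp53bp2 (-0.81), the deubiquitinase gene Usp7 (-0.57) and Rrm2b (-0.55) the second. The 13 calls at 8 weeks were 35.1% of the list, near the 33.4% of all genes. The list medians were 0.06 at 4 weeks and 0.26 at 8 weeks, against -0.01 and -0.09 for all genes.

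In the mitochondrial apoptosis list, 2 of 23 were higher and 1 lower at 4 weeks (8.70% and 4.35%, against 2.07% and 1.96% of all genes). The 8-week comparison gave 5 higher and 12 lower genes (21.7% and 52.2%, against 12.1% and 21.3% of all genes). The list median was then -0.28, against -0.09 for all genes. Bik, a BH3-only gene, was lower at both ages (-1.86 ± 0.23 and -2.94 ± 0.23). The inhibitor of apoptosis genes Birc3 (0.95 and 1.0) and Birc2 (0.44 and 0.86) were higher at both ages. The higher genes of the list at 8 weeks also included Birc5 (0.73), which is a proliferation gene too, and Htra2 (0.48). The lower genes at 8 weeks included Endog (-0.57), Aifm1 (-0.54) and Vdac1 (-0.50), all of mitochondrial proteins.

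Of 16 death receptor and adaptor genes, 2 were higher and 0 lower at 4 weeks (12.5% called, against 4.03% of all genes). Among the older mice 5 were higher and 2 lower (31.2% and 12.5%, against 12.1% and 21.3% of all genes). Tnfrsf12a, the receptor of TWEAK, was at 1.09 and 0.79, and Tnfaip3, a brake on NF-kB, at 0.97 and 1.83. At 8 weeks the inflammatory caspase gene Casp4 (1.90 ± 0.23) and Tnfrsf1b (0.68) were also higher, and Faim2 (-0.75) and Faf1 (-0.53) lower.

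Of 18 necroptosis and pyroptosis genes, 2 were higher and 0 lower at 4 weeks, Il1b (0.89) and Birc2 (11.1% called, against 4.03% of all genes). At 8 weeks 6 were higher and 5 lower (33.3% and 27.8%, against 12.1% and 21.3% of all genes), the former with Casp4, the inflammasome genes Pycard (0.92) and Nlrp3 (0.90), and the latter with Ppif (-0.55), Gsdme (-0.52), Ppm1b (-0.50) and Ninj1 (-0.47). Casp4 and Birc2 stand in 2 of the lists.

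Of 24 ferroptosis genes, 1 was higher and 1 lower at 4 weeks (8.33% called, against 4.03% of all genes). None was higher and 11 were lower in the older mice (45.8% lower, against 21.3% of all genes). The list median was then -0.26, against -0.09 for all genes. The heme oxygenase gene Hmox1 was at 3.32 ± 0.40 at 4 weeks (adjusted p = 6.6e-04). The transferrin receptor gene Tfrc was lower at both ages (-1.54 and -1.53). At 8 weeks Cbs (-1.82), the iron transporter gene Slc11a2 (-1.06) and the glutathione synthesis gene Gclc (-1.04) were the lowest beside Tfrc.

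Markers of the cells in cortex differed between the strains too, and their part in the results above was not tested. Over all genes, 2.07% were called higher and 1.96% lower at 4 weeks, and 12.1% and 21.3% at 8 weeks. Macrophage and dendritic cell markers were higher in ICGN in 11 of 15 cases at 4 weeks (73.3%) and 14 of 15 at 8 weeks (93.3%). Their summed signal ranged from 4756 to 5491 in ICGN against 2662 to 3734 in ICR in the younger mice. In the older mice it ranged from 8646 to 10560 against 3695 to 4728. Proximal tubule markers were lower in 9 of 12 cases at 8 weeks, with sums of 61200 to 68690 in ICGN and 87190 to 97640 in ICR, and in 0 of 12 at 4 weeks, where the sums overlapped (67030 to 86190 and 81530 to 89070). Proliferating cell markers were higher in 6 of 7 cases at 8 weeks (597 to 676 against 299.8 to 463), and fibroblast and pericyte markers in 5 of 8 (11690 to 12760 against 7175 to 8512). Endothelial markers were lower in 5 of 8 cases at 8 weeks (3806 to 4081 against 5025 to 5788). Of 6 podocyte markers 2 were higher at 8 weeks (33.3%), and of 3 lymphocyte markers tested 1 was (33.3%). Of 9 loop, distal tubule and collecting duct markers 2 were lower and 1 higher (22.2% and 11.1%), near the shares of all genes. At 4 weeks 2 of these 9 and 1 of 8 fibroblast and pericyte markers were lower, and 1 of 3 lymphocyte markers was higher. The 7 proliferating cell markers were then uncalled with negative values, and no endothelial or podocyte marker was called. None of the 7 neutrophil markers passed the filter on dim probe sets.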

How the data were processed

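Total RNA of renal cortex was hybridised to 1-colour arrays, per the labels' protocols. Each probe set has a signal intensity deposited by the authors, which per the submitters' processing notes came from MAS5 (version not given in these sources). Trimmed by 2% at both ends, the deposited arrays averaged 100 at 4 weeks and 500 at 8 weeks. Of 45101 probe sets the annotation named 1 symbol for 34958, and 93 belonged to members, 76 of them kept.

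With R 4.3.3 and limma 3.58.1, arrays were scaled to a common median of 40.4, probe sets above their array median in at least 3 of 12 arrays were kept, log2(signal + 9) was taken (9 is the 25th percentile of the table) and each array was centred on its tested probe sets. A gene was represented by its brightest probe set, and by an _x_at probe set only where it had no other. A model of 4 group means (8 residual degrees of freedom) was tested with limma's moderated statistic and a mean-variance trend, with Benjamini-Hochberg adjustment over 12385 genes; probe sets of one gene were adjusted over all 21826 tested. The script was tested on simulated data. Members and lists were chosen with earlier results of these data known. Values by array are printed for the 10 largest called changes at 8 weeks, every call at 4 weeks and in the interaction, and Bcl2, Casp9, Fas, Gpx4 and Mlkl, and up to 4 called genes each way of a pathway list are named. Alternatives changed the offset, normalization, filter, probe set choice, arrays fitted, variance model and replicate block, and left out each array. Replicate numbers did not pair the samples (correlations of deviations from -0.10 to 0.114 over 18 pairs).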

Additional observations from a re-analysis of the deposited data

Results flagged for a closer look

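The strain difference of Mlkl at 8 weeks minus that at 4 weeks was 1.69 (limma interaction, adjusted p = 0.0135). It was marked because the 2 strain differences under the same contrast differed by a test of the difference itself. Over the alternatives the value ran from 1.12 with 4 times the offset to 2.08 with no offset. The same measure for Ei24 was -0.67 (adjusted p = 0.00526), from a value of 0.20 at 4 weeks and -0.47 at 8 weeks, and it ran from -0.77 to -0.53.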

How the results depend on the processing

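No called value of a member changed sign in the 23 alternatives, and 22 of the 74 member values in the strain comparisons changed sign while staying uncalled. At 8 weeks the number of members called stayed between 13 and 17 when an array was left out. It was 10 with the filter at the 75th percentile, which left some dim members untested. At 4 weeks 1 member was called with a common median, 1 with no filter and 5 with the authors' scaling, and 0 to 6 with an array left out. Genes called at 4 weeks ranged from 214 to 568 with an array left out, and those in the interaction from 708 to 1393. Members called with an array left out ranged from 2 to 4 in the interaction, from 7 to 14 for age in ICR and from 4 to 10 for age in ICGN, where 5 were called with the filter at the 75th percentile. With the replicate number as a block, members called were 2 of which 1 was shared at 4 weeks, 16 at 8 weeks (all 15 shared), 3 in the interaction (2 shared), 9 in ICR (9 shared) and 8 in ICGN (8 shared). The block ended the 4-week calls of Ccng1 (0.77, adjusted p = 0.0657) and Gadd45b (0.64, adjusted p = 0.0527), and brought those of Bcl2l11 at 4 weeks (adjusted p = 0.0481) and Fas at 8 weeks (adjusted p = 0.0367).

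The share of all calls that were higher at 8 weeks was 36.2%, and 50.4% with quantile normalization, 24.6% with a common median and 60.0% with the authors' scaling, where the members gave 11 higher and 3 lower, 10 and 6, and 13 and 3. At 4 weeks it was 51.3%, against 60.6%, 53.7% and 62.2%, and in the interaction 493 of 1234 calls, against 53.9%, 27.9% and 58.4%. For age in ICR it was 56.1%, and 45.2% with quantile normalization, where the members gave 4 higher and 7 lower. The median strain difference of all genes at 8 weeks moved from -0.09 to -0.19 with a common median and to 0.05 with the authors' scaling, and that of the members from 0.13 to 0.03 and 0.27. The cause was not tested. Small differences of dim genes are limited by the signal over background.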

Other observations

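Among the further pathway genes the interaction was called for Hmox1 (-3.39 ± 0.57, limma adjusted p = 0.00376), which was chosen here after its values were seen. It stood at 3.32 at 4 weeks and -0.07 at 8 weeks in the strain comparisons, with a change of 1.25 in ICR and -2.13 in ICGN from 4 to 8 weeks. Cbs, the enzyme gene of the transsulfuration pathway, was at -1.46 in the interaction (adjusted p = 0.00152), Casp4 at 1.22 and Pycard, the inflammasome adaptor gene, at 1.08, and these 3 too were chosen after their values were seen. Of 24 ferroptosis genes, 4 were higher and 1 lower with age in ICR (16.7% and 4.17%, against 18.4% and 14.4% of all genes). In ICGN 1 was higher and 8 lower (4.17% and 33.3%, against 9.60% and 13.5%), and in the interaction 0 were higher and 4 lower (16.7% lower, against 5.98%).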
